A study of Arabidopsis thaliana with 14 samples.

Results

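Transposable elements are mobile DNA sequences, and many of them lie in the Arabidopsis genome in several copies that a short read cannot tell apart. The elements described here were chosen by their deposited values in 6 libraries of total RNA: 30 or more reads summed over the libraries, 1 or more read summed over the wild-type libraries, and at least 1 of the 6 values not a whole number. Of 31189 elements listed, 584 met this rule. Of the rest, 577 had 30 or more reads and whole counts in every library, 8 had 30 or more reads but under 1 wild-type read, 10323 had fewer reads and 19697 were at 0 in all 6 libraries. A value such as 16.5 holds a read counted in part, taken here as a read that fits several places in the genome. How the authors divided such reads is not stated in the labels or files.

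The libraries were made from poly(A)+ RNA of Arabidopsis thaliana inflorescences, as immature buds of stages 1 to 12. Plants carrying aly1-2, a mutant allele of the gene ALY1 in the Columbia background, were compared with wild-type Columbia, both grown in 16-hour days at 22 °C. Total RNA gave 3 libraries per genotype, and nuclear and cytoplasmic extracts gave 2 libraries per genotype each. Whether the libraries of a genotype came from separate plants is not stated in the labels, so p-values measure the spread between these libraries, which may be technical. The labels do not say how the allele alters the gene. Gene reads per total library ranged from 8.76 M to 12.7 M (M, mega), and element reads equalled 1.30% to 1.55% of them. Element reads differed more among the 3 aly1-2 libraries (chi-square per degree of freedom 4.74 to 10.6) than among the 3 wild-type libraries (2.54 to 3.36), with the widest gap between aly1-2 replicates 1 and 3. ALY1 itself (AT5G59950) had 180, 210.58 and 193 reads in aly1-2, against 941, 1065 and 1160 reads in wild type (log2 fold change −2.69, SE 0.15, edgeR quasi-likelihood test, adjusted p = 0.000319).

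In plants most transposable elements are kept silent by DNA methylation and by packed chromatin. Small RNAs guide new methylation to them (RNA-directed DNA methylation), and maintenance methyltransferases such as MET1 copy it when DNA is replicated. ALY proteins bind RNA in the nucleus and link transcription to the export of mRNA. Families whose copies are nearly identical are the hardest to follow by RNA sequencing, since a read from any copy may fit several others.

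The sharing of reads can be seen in a family of 8 pseudogene loci of about the same length, 3 of which carried members described here. Each of the following lines is a stretch of 100 bases read along the locus, and capitals mark bases that differ from AT1G48710. They are shown because the copies differ at so few bases over this length. All coordinates are in TAIR10.1, from RefSeq.
AT1G48710 (chr1:18014232-18014331, plus strand): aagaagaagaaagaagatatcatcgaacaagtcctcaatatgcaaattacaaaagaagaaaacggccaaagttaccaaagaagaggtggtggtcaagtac
AT1G11265 (chr1:3781835-3781934, plus strand): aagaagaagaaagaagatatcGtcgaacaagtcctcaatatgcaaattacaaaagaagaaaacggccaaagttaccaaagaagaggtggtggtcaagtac
AT3G59720 (chr3:22060605-22060704, plus strand): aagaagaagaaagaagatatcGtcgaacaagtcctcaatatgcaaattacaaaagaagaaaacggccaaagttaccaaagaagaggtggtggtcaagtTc
AT1G21945 (chr1:7718426-7718525, plus strand): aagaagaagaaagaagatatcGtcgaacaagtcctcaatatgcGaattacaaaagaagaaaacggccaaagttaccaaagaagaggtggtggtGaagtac
Along the stretch, AT1G11265 differed from AT1G48710 at 1 base, AT3G59720 at 2 and AT1G21945 at 3. The next pair of sequences shows the first 120 bases of SADHU3-1 and SADHU1-1, members of the Sadhu family of non-coding retrotransposons, with no capitals. They are shown because their loci held no repeated 50-base window.
SADHU3-1 (AT3G44042, chr3:15813937-15814056, minus strand): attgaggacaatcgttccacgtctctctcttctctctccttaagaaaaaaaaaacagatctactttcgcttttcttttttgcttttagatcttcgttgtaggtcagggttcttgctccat
SADHU1-1 (AT2G10410, chr2:4006925-4007044, minus strand): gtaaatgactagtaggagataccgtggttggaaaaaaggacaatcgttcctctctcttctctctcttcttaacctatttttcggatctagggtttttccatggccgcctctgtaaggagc
Over their full lengths of 982 and 1050 bases, SADHU3-1 and SADHU1-1 differed by 438 single-base edits.

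Among the 3504 values of the 584 elements, 1936 (55.3%) were not whole. In 180 elements only 1 of the 6 values was not whole, and in 158 all 6 were not. Element positions were not used here, so elements were tied to annotated loci by their values: 40 had nearly the same 6 values as a row of the gene files, all 40 on the chromosome named in the element's identifier. The same matching tied 40 elements with whole counts, 6 of them to a gene on another chromosome, so ties by value can be false. Of the 40 loci tied to elements with shared reads, 34 were annotated as pseudogenes and 5 as protein-coding genes. The genome was then searched for every 50-base window of each locus. Of the 34 matched elements with 1 to 4 values not whole, 5 lay at loci with 20% or more of windows found again elsewhere, and the median over the 34 was 0%. Of the 6 with 5 or 6 values not whole, 5 did so, with a median of 77.4%. For the 34 elements with whole counts that were tied to a gene on their own chromosome, the highest share was 15.3%. Most of the tied loci with few shared values were thus unique in sequence, and 5 of the 6 with 5 or 6 shared values had from 49.96% to 100% of their windows repeated. Among the 40 loci, 19 held no repeated window, and why values there were not whole was not tested. The name shared reads is thus an assumption for such elements.

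**Figure D1:**
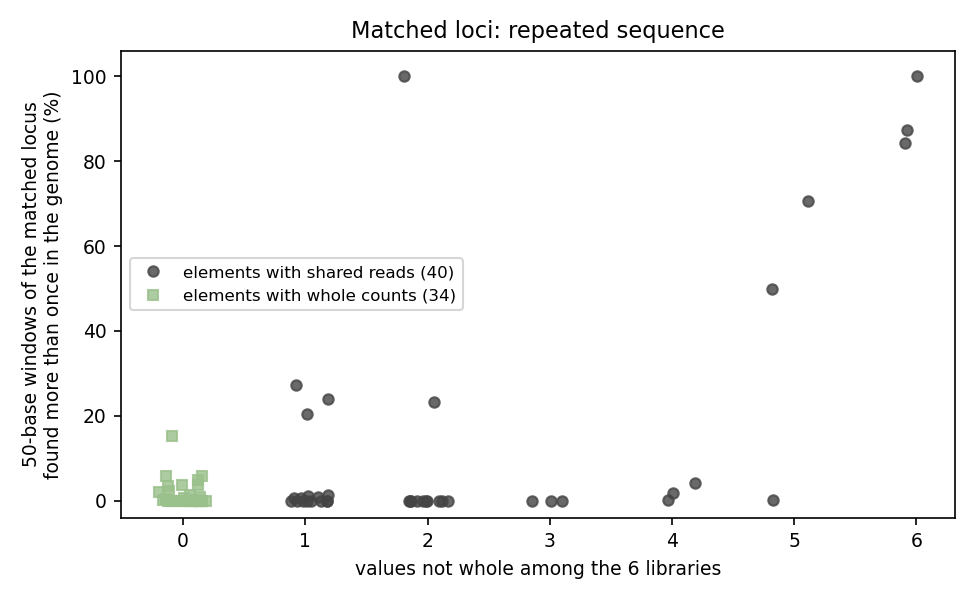
Share of 50-base windows found more than once in the genome (y axis, percent) against the number of values not whole among the 6 libraries (x axis, points spread sideways), for 40 loci of elements with shared reads and the 34 same-chromosome loci of elements with whole counts. The 3 loci with 6 values not whole lie between 84.2% and 100%, and most loci with 1 to 4 lie near 0%.

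Read numbers were very uneven. The median element had 126 reads over the 6 libraries, the quartiles were 57.5 and 488, and 252 elements had under 100 reads. The 5 elements with the most reads held 32.4% of all reads of the 584. Element lengths were not used here, so this order is of reads and not of level per length.

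The most read element was AT2TE54200, with 13633, 11581 and 10996 reads in aly1-2, against 11229.1, 10524.5 and 12434.5 reads in wild type. On the CPM scale (reads per M gene reads, scaled between libraries) it stood at 1064 ± 42.8 in aly1-2 and 1211 ± 93.7 in wild type, as mean ± SD of 3 libraries per genotype here and below, and the groups overlapped. AT2TE51495 followed with 696 ± 64.9 CPM in aly1-2 and 752 ± 116 CPM in wild type, again overlapping. AT5TE58310, with shared reads in all 6 libraries, had 608 ± 86.3 CPM in aly1-2 and 552 ± 65.6 CPM in wild type. None of the 8 elements with the highest mean CPM passed the test, the lowest adjusted p among them being 0.129 for AT4TE83080. That element had 5619, 6619 and 9148.67 reads in aly1-2, against 4205, 2856 and 4016 reads in wild type (log2 fold change 0.70, SE 0.24). It passed without aly1-2 replicate 1 (log2 fold change 0.91, adjusted p = 0.00312) and with no filter on low counts (adjusted p = 0.00143). Its highest wild-type CPM, 470, was above the lowest in aly1-2, 438. The remaining members of the 8 were AT1TE25360, AT2TE16945, AT1TE91365 and AT5TE91530, whose log2 fold changes lay between −0.12 and −0.03. For AT1TE25360 and AT2TE51495 the sign of the difference turned when certain libraries were left out.

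Summed over the 584 elements, reads came to 10100, 10937 and 11157 reads per M gene reads in aly1-2, against 10454, 9142 and 10194 in wild type. The means were 10732 ± 558 in aly1-2 and 9930 ± 695 in wild type, and the groups overlapped. The difference of 802 fell to 407 without wild-type replicate 2 and was 1117 without aly1-2 replicate 1. In every library these elements held 70.1% to 72.2% of all element reads. The difference of the totals was about as large as the spread between libraries, while some single elements, named below, differed by far more than theirs.

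More elements with shared reads were called higher than lower in aly1-2, but not among those at 2 CPM or more in wild type, where 7 were higher and 8 lower. Each element that passed a filter on low counts was tested for a difference between genotypes, with p-values adjusted over all 854 tested elements. Of the 584 elements, 430 passed the filter. Among these 430, 49 were higher and 10 were lower in aly1-2 (edgeR quasi-likelihood test, adjusted p under 0.05), which is 11.4% and 2.33%. Of all 854 tested elements, 7.73% were higher and 1.41% were lower. Among the 418 tested elements with whole counts, 11 were higher and 2 were lower (2.63% and 0.478%). The difference between the shares of shared-read and whole-count elements was not tested. These classes were split by the same values as the calls, so more reads in aly1-2 could itself make an element a shared-read one. The median log2 fold change was 0.14 over the 430, against 0.12 over all tested elements and 0.10 over those with whole counts. Without aly1-2 replicate 3 the median over the shared-read elements was 0.08. In bulk RNA, more cells of a kind and more RNA per cell cannot be told apart.

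All 49 higher elements and all 10 lower ones had groups that did not overlap in CPM, which a call with 3 libraries per genotype makes likely. Counted without the test, 105 of the 584 (18.0%) were higher in every aly1-2 library than in every wild-type library, and 34 (5.82%) were lower. Among all 1169 elements with 30 or more reads these shares were 15.8% and 5.73%. The 49 risers together had 498 ± 34.2 reads per M gene reads in aly1-2 and 148 ± 8.74 in wild type, a small part of the total given above. They were chosen by their difference in these same libraries, so the gap between these means follows from the choice.

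**Figure D2:**
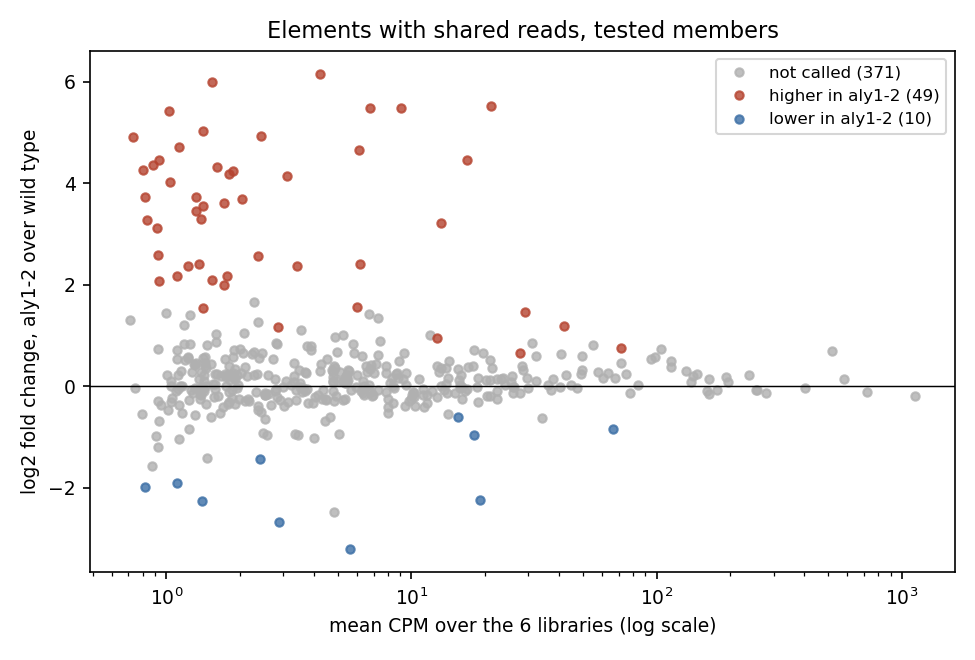
Log2 fold change of aly1-2 over wild type (y axis) against mean CPM over the 6 libraries (x axis, log scale) for the 430 tested elements with shared reads. Red points are the 49 called higher, blue points the 10 called lower, and grey points the 371 not called, most of which lie near 0.

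The wild-type level set which elements could pass the filter. Of 33 tested elements with a wild-type mean under 0.5 CPM, 32 were called higher, but an element that low could pass the filter only through its aly1-2 libraries, so this count follows from the filter. Of 229 elements at 0.5 to 2 CPM in wild type, 124 were tested, of which 10 were higher and 2 lower. The other 105 did not pass the filter. Members at the low end of this class could pass only through their aly1-2 libraries, so this count also depends in part on the filter. Of 150 at 2 to 10 CPM, where all members passed the filter, 3 were higher and 3 lower. Of 123 at 10 CPM or more, 4 were higher and 5 lower.

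The shares called were also counted by the degree of sharing, and the differences between these classes were not tested. Of 238 tested elements with 1 to 3 values not whole, 12 were higher (5.04%) and 7 lower (2.94%). Of 192 with 4 to 6 values not whole, 37 were higher (19.3%) and 3 lower (1.56%). A value is more often not whole where an element shares reads in every library, so an element at 0 in any library could not have all 6. By chromosome, 11 elements were called higher on chromosome 1 (12.4% of those tested there), 7 on chromosome 2 (10.3%) and 15 on chromosome 3 (14.4%). On chromosomes 4 and 5, 6 and 10 elements were called higher, 9.52% and 9.43% of those tested there.

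**Figure D3:**
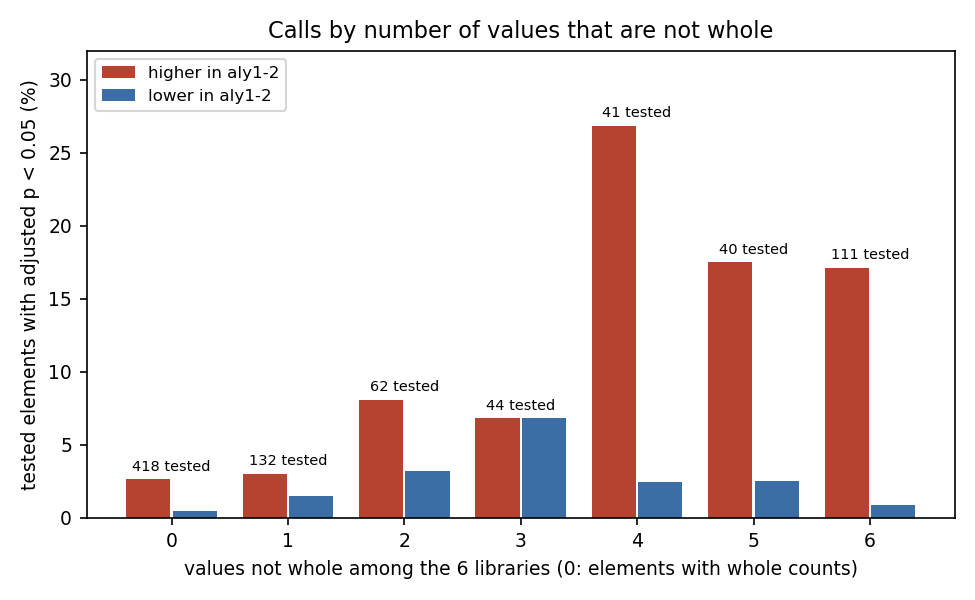
Percent of tested elements called higher (red) or lower (blue) in aly1-2 (y axis) by the number of values not whole among the 6 libraries (x axis, 0 for elements with whole counts), with the number tested above each pair of bars. The higher share is 2.63% for whole counts, 3.03% for 1 value, and between 17.1% and 26.8% for 4 to 6 values. The classes were read from the same values as the calls.

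AT1TE58825 was the riser with the most reads in aly1-2 among the 10 highest fold changes. It had 511.07, 405.23 and 486.31 reads in aly1-2, against 6, 8 and 11 reads in wild type (log2 fold change 5.52, SE 0.22, adjusted p = 3.24e-07). In CPM this was 41.2 ± 3.45 in aly1-2 and 0.879 ± 0.232 in wild type, with little spread among the mutant libraries. Its wild-type reads were whole, and shared reads appeared only in aly1-2.

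AT1TE44720 had shared reads in all 6 libraries, with 134.62, 145.11 and 164.95 reads in aly1-2, against 1.07, 3.34 and 4.08 reads in wild type (log2 fold change 5.49, SE 0.36, adjusted p = 1.98e-05). AT3TE65015 varied more among the mutant libraries, with 349.71, 180.55 and 94.52 reads in aly1-2, against 1.51, 3 and 5.66 reads in wild type (log2 fold change 5.48, SE 0.53, adjusted p = 0.000213). Its lowest aly1-2 library, replicate 3, still held many times the reads of the highest wild-type library. AT2TE23665 had 24.82, 62.6 and 66.55 reads in aly1-2, against 2.03, 0.06 and 2 reads in wild type (log2 fold change 4.94, SE 0.72, adjusted p = 0.00167). Here replicate 1 was the lowest of the mutant libraries.

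The other 6 of the 10 highest had 3 or fewer reads in the 3 wild-type libraries together. A ratio of summed reads, corrected for library size, is therefore given in place of the fitted fold, with a 95% binomial counting interval. The interval used sums rounded to whole reads and the ratio unrounded sums, so the interval is approximate. AT2TE25540 had 90.1, 80.1 and 111.69 reads in aly1-2, against 1.74, 1.06 and 0 reads in wild type, a ratio of 83.5 (26.4 to 380). AT5TE86350 had 32.1, 37.22 and 32.66 reads in aly1-2, against 1, 0 and 0.14 reads in wild type, a ratio of 74.2 (14.8 to 3373). Such intervals cover counting error only, and they span more than an order of magnitude because so few wild-type reads were counted. AT3TE47360 had 16.57, 17.99 and 32.51 reads in aly1-2, against 0.03, 0 and 1 reads in wild type, a ratio of 54.0 (9.64 to 2227). AT3TE51505 had 24.11, 24.37 and 42.73 reads in aly1-2, against 2, 0.24 and 0.08 reads in wild type, a ratio of 32.6 (10.15 to 316). In both elements replicate 3 was the highest of the mutant libraries. AT5TE25535 had 17.88, 15.02 and 15.4 reads in aly1-2, against 0.2, 0 and 1 reads in wild type, a ratio of 33.4 (6.81 to 1604.5). AT2TE69490 had 23.13, 23.1 and 27.22 reads in aly1-2, against 0.1, 2 and 0 reads in wild type, a ratio of 29.0 (8.08 to 255). These last 4 elements had adjusted p between 0.00167 and 0.00189, and no wild-type library reached the lowest aly1-2 library in any of them.

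**Figure D4:**
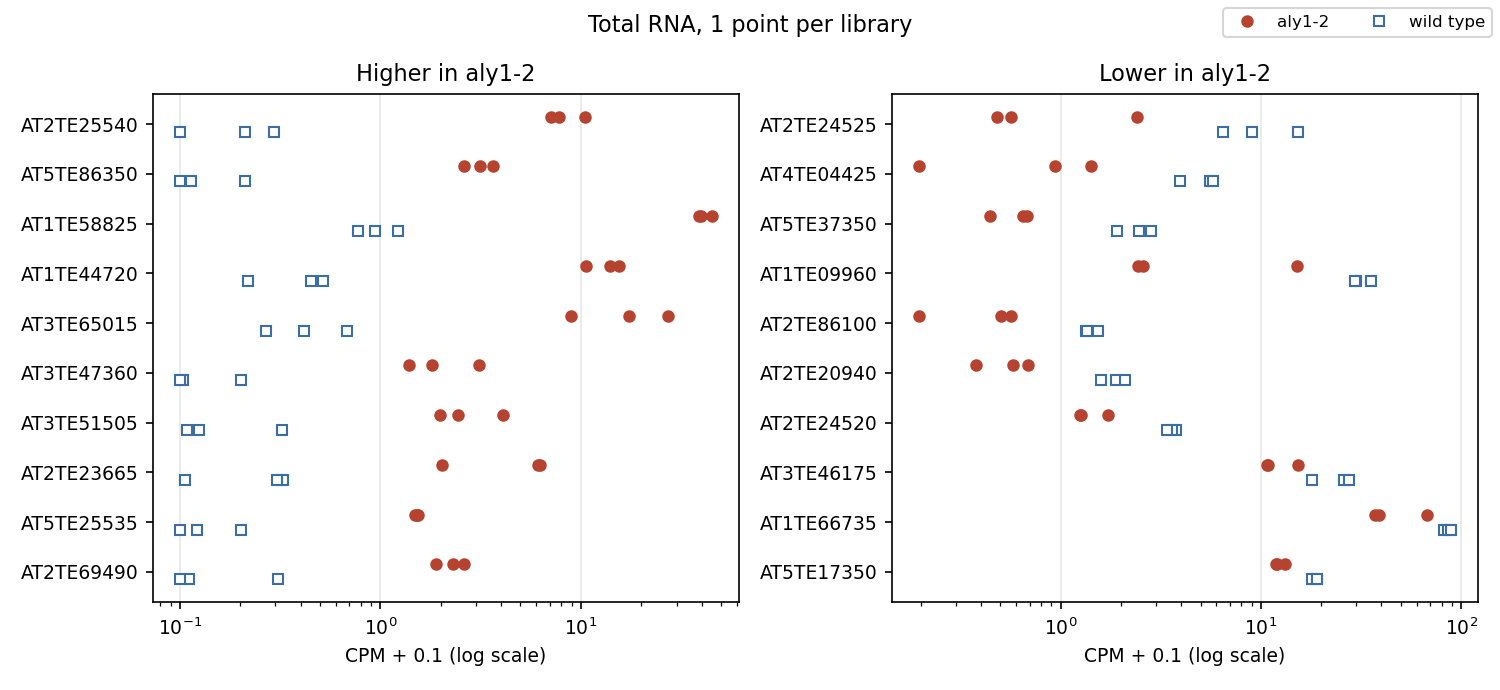
CPM + 0.1 in each total library (x axis, log scale) for the 10 elements with the highest log2 fold changes (left) and the 10 with the lowest (right) among those that passed the test. Filled circles are the 3 aly1-2 libraries and open squares the 3 wild-type libraries, and in no element do the groups overlap.

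Below the 10 highest, 20 further risers had log2 fold changes over 3, 10 lay between 2 and 3, and 9 were under 2. AT4TE42860 had 1390, 877.11 and 827 reads in aly1-2, against 517, 523 and 447 reads in wild type (log2 fold change 0.76, SE 0.17, adjusted p = 0.0152), a call kept in 3 of the 6 fits that left out a library. AT1TE83175, with shared reads in all 6 libraries, had 609.31, 587.48 and 766.5 reads in aly1-2, against 200.68, 255.09 and 264.17 reads in wild type (log2 fold change 1.19, SE 0.18, adjusted p = 0.00167). Among those over 3, AT4TE27915, also shared in all 6 libraries, had 358.35, 289.36 and 440.02 reads in aly1-2, against 13.44, 6.5 and 22.5 reads in wild type (log2 fold change 4.46, SE 0.35, adjusted p = 5.09e-05). These 3 were picked for their read numbers after the values were seen.

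Of the 49 risers, 33 stayed called whichever of the 6 libraries was dropped, and 12 stayed called in 3 or fewer such fits. Replicate 3 held the highest aly1-2 CPM in 30 of the 49 and replicate 1 the lowest in 29. The summed CPM of 8 pollen genes, expressed late in the anthers, was 943, 1825 and 3816 in aly1-2 replicates 1, 2 and 3, against 1498, 1414 and 2197 in the wild-type libraries. None of the 8 was at 0 in all libraries, 5 were tested and none of these passed. Their part in the result was not tested.

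The 10 elements that were lower in aly1-2 kept 1 or more reads in every mutant library, and aly1-2 replicate 1 held the highest mutant CPM in 6 of them. AT2TE24525 had 29.72, 4 and 5 reads in aly1-2, against 57, 85.5 and 149 reads in wild type (log2 fold change −3.20, SE 0.58, adjusted p = 0.0057). AT4TE04425 had 17, 1 and 9 reads in aly1-2, against 49, 54 and 37.5 reads in wild type (log2 fold change −2.67, SE 0.52, adjusted p = 0.00847). In both, aly1-2 replicate 1 was the highest mutant library. AT5TE37350, with shared reads in all 6 libraries, was even among the mutant libraries, with 4.39, 6.07 and 5.87 reads in aly1-2, against 21.26, 26.04 and 17.74 reads in wild type (log2 fold change −2.26, SE 0.39, adjusted p = 0.00444). These 3 were the fallers that stayed called in every fit that left out 1 library.

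AT1TE09960 had 193, 26 and 25 reads in aly1-2, against 267, 337.5 and 288 reads in wild type (log2 fold change −2.23, SE 0.58, adjusted p = 0.0413). AT1TE66735 had 867, 386 and 416 reads in aly1-2, against 730.87, 815 and 870.5 reads in wild type (log2 fold change −0.84, SE 0.22, adjusted p = 0.042). In both, replicate 1 stood apart from the other mutant libraries. AT3TE46175 had 136.5, 112.5 and 164.75 reads in aly1-2, against 231, 171 and 267.25 reads in wild type (log2 fold change −0.96, SE 0.22, adjusted p = 0.0203). AT5TE17350 had 167.48, 124.9 and 127 reads in aly1-2, against 160.5, 179.9 and 184.4 reads in wild type. It changed least, at 12.3 ± 0.684 CPM in aly1-2 and 18.6 ± 0.556 CPM in wild type, with a log2 fold change of −0.60. AT2TE86100, AT2TE20940 and AT2TE24520 were the remaining fallers, with log2 fold changes of −1.99, −1.90 and −1.43 and at most 17 reads in any aly1-2 library. The calls of AT1TE09960, AT1TE66735, AT5TE17350, AT2TE86100 and AT2TE20940 were each kept in 1 of the 6 fits that left out a library, the fit without aly1-2 replicate 1. AT3TE46175 was kept in 3 of them and AT2TE24520 in 5. AT5TE17350 and AT2TE86100 also lost their calls with no filter on low counts (adjusted p = 0.245 and 0.0827) and with the DESeq2 test (adjusted p = 0.163 and 0.261).

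Neighbours were read from the order of lines in the files. Of the 59 called elements, 20 had another element with 30 or more reads within 3 lines, and in 2 pairs both were called. The same shares over all tested elements were not counted, so whether these numbers are high or low cannot be said. AT2TE24525 and AT2TE24520, on adjacent lines, were both lower in aly1-2, the second with 15, 17 and 12.33 reads in aly1-2, against 32.88, 33.5 and 32 reads in wild type. AT3TE63935 and AT3TE63950, 3 lines apart, were both higher. AT3TE63950 had 14.1, 22.75 and 14.56 reads in aly1-2, against 1.01, 0.53 and 1.07 reads in wild type. Next to AT2TE23665, the untested AT2TE23670 had 9.07, 18.51 and 25.46 reads in aly1-2, against 1.2, 2 and 0 reads in wild type, with replicate 1 the lowest mutant library in both. AT1TE58825 had 2 whole-count neighbours that did not pass, AT1TE58840 with a log2 fold change of −0.73 and AT1TE58870 with 0.89. AT1TE71955 and AT1TE72065 had proportional values in the 6 libraries, their ratio varying by under 2%, and were the only such pair. AT1TE71955 had 64.02, 66.25 and 75.3 reads in aly1-2, against 37.38, 56.72 and 44.25 reads in wild type. AT1TE72065 had 64.35, 67.36 and 75.63 reads in aly1-2, against 37.55, 57.56 and 44.92 reads in wild type. Neither passed (log2 fold changes 0.32 and 0.30).

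Of the 40 elements tied to a gene row, 31 were tested in total RNA and 5 of these were called higher in aly1-2 (16.1%, beside 7.73% of all 854 tested elements). None was called lower. AT1TE12295, AT1TE59755, AT3TE63935 and AT2TE07145 had under 10 reads in every wild-type library. They could pass the filter on low counts only through their aly1-2 libraries, so this share follows in part from the filter. AT1TE12295 and AT1TE59755 also belong to the same family, whose copies share reads. The 3 tied to loci with few or no repeated windows were AT3TE63935 (SADHU3-1), AT2TE07145 (AT2G04460) and AT3TE30975 (AT3G21040). SADHU3-1 (AT3G44042, chr3:15813075-15814056) had 20, 18.04 and 23 reads in aly1-2, against 3.43, 7 and 1 reads in wild type (log2 fold change 2.17, SE 0.52, adjusted p = 0.0275). Its call was kept in 2 of the 6 fits that left out a library. The groups did not overlap, and none of its 50-base windows occurred elsewhere in the genome.

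AT3TE30975 lay among other tied pseudogenes on chromosome 3. It had 48.5, 36 and 49.5 reads in aly1-2, against 20, 14 and 15 reads in wild type (log2 fold change 1.17, SE 0.29, adjusted p = 0.0342), a call kept in 2 of the 6 fits that left out a library. None of its 4 expressed neighbours within 3 lines passed. The nearest, AT3TE30970 (AT3G21030) and AT3TE30980 (AT3G21050), had whole counts and log2 fold changes of 0.27 and 0.20, with adjusted p = 0.799 and 0.864. AT3TE30965 (AT3G21020) and AT3TE30960 (AT3G21010), farther off, had log2 fold changes of 0.83 and 0.84, with adjusted p = 0.289 and 0.0672. AT2TE07145 had 16.5, 29 and 37 reads in aly1-2, against 8, 6 and 2 reads in wild type (log2 fold change 2.09, SE 0.55, adjusted p = 0.0413). That call was kept in 1 of the 6 fits that left out a library.

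Other named loci did not pass. SADHU1-1 (AT2TE16945) had 3152, 2928 and 2956 reads in aly1-2, against 2722.14, 2623.12 and 2859.5 reads in wild type (log2 fold change −0.12, SE 0.12). SADHU10-1 (AT3TE88640) had 439.5, 503 and 601 reads in aly1-2, against 362, 295 and 456 reads in wild type (log2 fold change 0.23, SE 0.21). SADHU10-1 overlaps the protein-coding gene AT3G58875 on the other strand by 466 bases. SADHU1-1 overlaps a pseudogene by 122 bases and MUG6 the gene AT5G48970 by 30 bases. Whether the counting used strand is not stated, so reads of such pairs may be mixed. MUG1, MUG5 and MUG6 belong to the MUSTANG genes, a group derived from DNA transposons that plants have kept as genes. Their log2 fold changes were −0.10, −0.09 and −0.14, with adjusted p of 0.836, 0.881 and 0.819.

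The other 2 called elements with a gene row, AT1TE12295 and AT1TE59755, lay at the repeated family whose sequences are printed above. Its 8 loci on chromosomes 1, 3 and 5 ranged from 3880 to 4295 bases, and all were annotated as pseudogenes. Against AT1G48710, the loci other than AT3G32415 aligned at 99.1% to 99.4% identity, and AT3G32415 at 97.5%. At AT1G11265 (chr1:3781235-3785293) every 50-base window occurred again in the genome, in 7 places at the median. AT1G11265 lies within the protein-coding gene AT1G11270, on the opposite strand and outside its exons.

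AT1TE12295 (AT1G11265) had 51.37, 18.48 and 41.13 reads in aly1-2, against 2.89, 3.48 and 0.58 reads in wild type (log2 fold change 3.62, SE 0.54, adjusted p = 0.00167). AT1TE59755 (AT1G48710, chr1:18013632-18017690) had 28.01, 19.21 and 36.75 reads in aly1-2, against 0.64, 2.53 and 1.25 reads in wild type (log2 fold change 3.72, SE 0.54, adjusted p = 0.00167). The third, AT3TE89830 (AT3G59720, chr3:22060005-22063902), was not tested for its low counts. It had 12.39, 7.56 and 15.88 reads in aly1-2, against 0.64, 2.73 and 1.08 reads in wild type, without overlap. Since the copies share reads, these loci are not independent of each other, and a read from any copy can be counted in part at several.

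The gene files also covered nuclear and cytoplasmic RNA, which played no part in choosing the elements. The family was looked up there after its values in total RNA were seen. Summed over the 8 loci, nuclear RNA held 768.74 and 517.47 reads in aly1-2, against 97.01 and 117.31 reads in wild type. After scaling this was 41.6 and 33.3 CPM in aly1-2, against 6.99 and 7.50 CPM in wild type, so both mutant libraries were above both wild-type libraries. In cytoplasmic RNA the sums were 20.6 and 7.34 CPM in aly1-2, against 3.69 and 5.38 CPM in wild type, on only 128.69 and 30.53 reads in aly1-2, against 18.85 and 35.14 reads in wild type. In total RNA they were 17.7, 11.1 and 21.7 CPM in aly1-2, against 7.59, 4.81 and 5.42 CPM in wild type.

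Within the family, AT1G21945 (chr1:7717826-7722120) differed from the others in having most of the wild-type reads. It had 53.73, 34.83 and 67.92 reads in aly1-2, against 60.14, 29.16 and 44.89 reads in total RNA of wild type (log2 fold change −0.05, SE 0.34). In nuclear RNA it had 143.19 and 176.54 reads in aly1-2, against 68.32 and 72.51 reads in wild type. AT1G11265 had 162.85 and 63.99 nuclear reads in aly1-2, against 3.82 and 6.53 in wild type (log2 fold change 4.09, SE 0.96). AT1G48710 had 85.62 and 85.86 nuclear reads in aly1-2, against 6.19 and 7.11 in wild type (log2 fold change 3.50, SE 1.02). In nuclear RNA the groups did not overlap at any of the 8 loci, yet none passed the test over all genes, with adjusted p from 0.466 to 1. In that comparison 0.0381% of 20971 tested genes passed, and in the cytoplasmic one 0.0143%. The share of all genes without overlap was not counted, and groups of 2 libraries can separate without a difference. The 8 loci share reads, so they are not 8 separate observations.

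**Figure D5:**
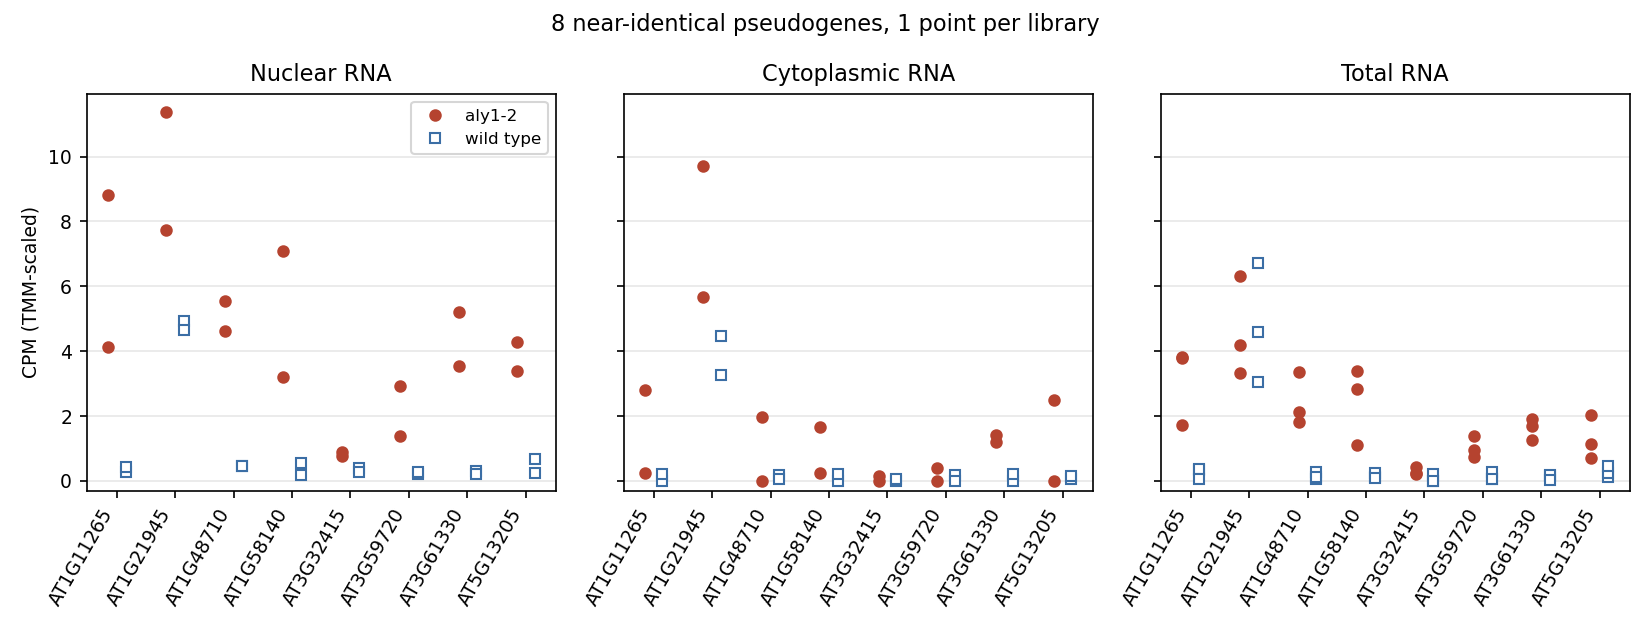
CPM (TMM-scaled, separately for the fraction and the total libraries) of the 8 near-identical pseudogenes in nuclear, cytoplasmic and total RNA. Filled circles are aly1-2 libraries and open squares wild-type libraries, and in nuclear RNA every circle lies above the squares of its locus.

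Over all 40 tied gene rows, 37 were tested in the fractions. In nuclear RNA 0 of 37 passed (edgeR quasi-likelihood test), with 3 at an unadjusted p under 0.05, 25 positive and a median log2 fold change of 0.23 against 0.02 over all genes. That median was 0.39 without aly1-2 nuclear replicate 1 and 0.07 without aly1-2 nuclear replicate 2. The 3 at an unadjusted p under 0.05 were AT1G11265, AT1G48710 and AT3G59720, copies of the family above that share reads. The shares of all genes with such a p or with a positive sign were not counted. In cytoplasmic RNA 0 of 37 passed in the same edgeR fit, with 4 at an unadjusted p under 0.05 and a median of 0.08, which changed sign when aly1-2 cytoplasmic replicate 1 or 2 was left out (−0.16 and −0.01). Nuclear values of SADHU3-1 were 15 and 22 reads in aly1-2, against 13.25 and 5 reads in wild type (log2 fold change 0.82, unadjusted p = 0.447 in the edgeR fit).

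Just inside 30 reads stood AT1TE07620, AT3TE58585 and AT3TE63260, with sums of 30.01, 30.37 and 30.4 reads. Just outside stood AT1TE61335, AT3TE84410 and AT5TE34945, with 29.66, 29.43 and 29.2 reads. The 5 elements whose values lay farthest from whole numbers were AT5TE34840, AT3TE82950, AT5TE12800, AT5TE30155 and AT5TE32885, 3 of which were tested and none called. AT5TE34840 had 26, 23.5 and 30.5 reads in aly1-2, against 31.5, 36.5 and 61.5 reads in wild type (log2 fold change −0.95, SE 0.31, adjusted p = 0.11). With scaling on the elements it passed, with adjusted p = 0.0496.

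Of 18 genes of transposon silencing or of removing DNA methylation, tested in the same total libraries, 0 were higher and 1 was lower. Of all 20431 tested genes, 0.475% passed in either direction. The lower one of the 18 was ROS1 (AT2G36490), a DNA glycosylase that removes methylated cytosine. It had 111, 148 and 194 reads in aly1-2, against 1556.5, 1440.5 and 1813 reads in wild type (log2 fold change −3.65, SE 0.25, adjusted p = 0.000997). The other 17 lay between −0.41 for DRM2, the methyltransferase of RNA-directed methylation, and 0.46 for MORC6, a chromatin ATPase of silencing. None of these 17 passed, the lowest adjusted p being 0.139 for MORC6. MET1 had 395.33, 387 and 364 reads in aly1-2, against 282, 311 and 253 reads in wild type (log2 fold change 0.17, SE 0.12). DDM1, the remodeller that keeps elements methylated, had a log2 fold change of 0.05 (SE 0.12). The median over the 18 was 0.01, the same as over all genes tested.

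Each list of tissue markers had reads in every library, though DYT1 of the tapetum list had 0 in wild-type replicate 1. GEX2 of the pollen list had 0 in replicates 2 and 3 of both genotypes. The 6 floral identity genes summed to 797 to 829 CPM in aly1-2 and 617 to 699 CPM in wild type, without overlap, and none passed singly. SEP3 held the largest part of the sum (361 ± 26.8 CPM in aly1-2, 286 ± 31.1 CPM in wild type). Of the 6, 5 had a positive log2 fold change and LFY a negative one (−0.04). The share of all genes without overlap was not counted. Of the 6 tapetum genes, 4 were tested and none passed, with sums of 64.7 to 81.6 CPM in aly1-2 and 55.4 to 69.8 CPM in wild type. The 3 green tissue genes summed to 5050 to 7960 CPM in aly1-2 and 4862 to 5970 CPM in wild type, and none passed.

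The count of called elements rested on the libraries included. Without aly1-2 replicate 1 it was 89 higher and 19 lower. Leaving out any other library gave 37 to 44 higher, but 4 lower without aly1-2 replicate 2 or wild-type replicate 1, 5 without wild-type replicate 2 or 3, and 6 without aly1-2 replicate 3.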

How the data were processed

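Poly(A)+ RNA-seq of 14 libraries was deposited as 1 value per gene, and for the 6 total libraries also as 1 value per transposable element. The values are estimated counts (expected counts, with hundredths) that the authors deposited. STAR 2.5.1b, Subread 1.6.1 with featureCounts, and the build TAIR10 are named by the submitters' processing notes. The division of reads with several places is not stated there. Libraries were strand-specific, per the labels' protocols.

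The members and the lists were chosen with earlier results of these data known. Values were rounded and tested with edgeR 4.0.16 (R 4.3.3): filterByExpr (minimum count 10, minimum total 15), library sizes and TMM factors from the genes, quasi-likelihood F-test, Benjamini-Hochberg adjustment over all tested elements or genes, threshold 0.05. Adjusted p-values are from these fits. The SE is the size of the log2 fold change over the square root of F. CPM are TMM-scaled. Residual degrees of freedom were 4. The design assumed whole counts, which did not hold. The method was first tested on simulated counts.

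An element was tied to a gene row where the summed difference of their 6 values was under 1% of its reads, or under 5% with 3 or more equal values, the row having 20 or more reads. Coordinates and sequences came from TAIR10.1 (RefSeq), by gene identifier, and none were read from the deposited files. Near-identical copies were found with blastn 2.17.0 in TAIR10.1 (alignments of 300 or more bases at 97% or more identity). The fraction libraries had 7.23 M to 11.3 M gene reads.

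Elements were named by rule: the 10 called members with the highest and the 10 with the lowest log2 fold change, the 8 highest mean CPM, the 5 farthest from whole values, 3 on each side of the limit of 30 reads and any with proportional values. Element families, lengths and positions were not used. Elements tied to genes, neighbours and family loci were chosen after their values were seen. Each element file had 1 line that names no element, which was left out of the tests. Alternatives were other scalings, DESeq2 1.42.0, other filters and rounding, other member limits, a replicate block and leaving out each library. The replicate numbers did not pair the libraries (correlations of deviations −0.12, −0.08 and 0.14).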

Additional observations from a re-analysis of the deposited data

Results flagged for a closer look

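Outside the elements described above, 8 elements had 30 or more reads but under 1 wild-type read, and they held 458.86 reads over the 3 aly1-2 libraries, against 1.21 reads over the 3 wild-type libraries. AT5TE33235 had 22.3, 31.25 and 45.66 reads in aly1-2, against 0.03, 0.71 and 0.12 reads in wild type. AT1TE75440 had 39, 15 and 29 reads in aly1-2 and 0 in each wild-type library, at least 22.9-fold higher against 3 reads over the wild-type group. Of the 8, 6 passed the filter and all 6 were called higher (edgeR, adjusted p from 0.0014 to 0.0046), as the filter on low counts makes likely for elements with no wild-type reads. A line of the element files that names a gene and no element, with 17 reads over the aly1-2 libraries, had 6, 6 and 5 reads in aly1-2, against 1, 1 and 0 reads in wild type. These counts were outside the comparisons above.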

How the results depend on the processing

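Against 59 calls, 53 to 63 were made with DESeq2 size factors, the DESeq2 test, a filter of 30 or more reads, rounding down, unrounded values, scaling on the elements, a minimum of 60 reads or no minimum of wild-type reads. With no filter on low counts 77 were higher and 9 lower, against 49 and 10. With DESeq2 49 were higher and 5 lower, and 42 of the 49 were shared. Scaling on the elements gave 46 higher and 16 lower, moved the median of all elements by −0.12 and that of the shared-read elements to 0.0212 (main value 0.14). Limited to elements with all 6 values not whole there were 20 calls, by construction from fewer elements. With the replicate block there were 56 calls (48 higher, 8 lower), and AT5TE17350 and AT2TE86100 lost theirs (adjusted p = 0.0694 and 0.0732). Leaving out each library gave 41 to 108 calls, the highest without aly1-2 replicate 1. Among 434 values of 31 named elements under the alternatives, 389 kept their direction and side of the threshold, 39 lost their call and 3 gained one, 2 for AT4TE83080 and 1 for AT5TE34840. Signs turned for AT1TE25360 (0.04 without aly1-2 replicate 3 and 0.05 without wild-type replicate 2, range −0.11 to 0.0501) and AT2TE51495 (0.00414 without wild-type replicate 1, range −0.22 to 0.00414). The median of the tied gene rows in cytoplasmic RNA ranged from −0.16 to 0.49 over the libraries left out, and was −0.01 without aly1-2 cytoplasmic replicate 2. The cause was not tested. The difference in summed reads kept its direction in every alternative run, at 407 to 1117 over the libraries left out. Elements with few wild-type reads have folds limited by depth, and fractions of a read cannot be assigned to a copy.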
